A study of Mus musculus with 4 samples.

Results

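The genes described here are 10 that act on protein folding in the endoplasmic reticulum (ER): the chaperones Hspa5 and Hsp90b1, the co-chaperones Dnajb9, Dnajc3 and Sdf2l1, the folding enzyme Pdia4, the degradation factor Herpud1, and Xbp1, Atf6 and Ern1, which carry the signal of unfolded protein. They were chosen by name, as the array's non-control probes whose gene symbol is one of the 10, and they are 10 of the 20616 genes with a probe well above background on at least 1 array. Primary hepatocytes of Drp1LiKO mice were set against those of control mice in culture, either without treatment or with palmitate at 200 μM, a fatty acid without double bonds. Drp1, the product of Dnm1l, is the dynamin-related protein that divides mitochondria. There was 1 array for each of the 4 groups and hence no replicate, which bounds how precise any value here can be.

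The Drp1LiKO animals were Alb-Cre Tg/+ Drp1 flox/flox, in which the albumin promoter drives Cre in hepatocytes. The controls were Drp1 flox/flox littermates in the methods, so that they would carry the floxed alleles too, whereas the sample labels call both control cultures wild-type and title the palmitate one Drp1flox. All animals were of the C57BL/6 strain and, per the methods, male. Their age at the time of hepatocyte isolation and the number of animals behind each array were not given in the sources used here. Cells were taken from collagenase-perfused liver, pelleted by slow centrifugation, and harvested 24 h after seeding, and the labels give no duration of palmitate for the arrays. The untreated control array is not exclusive to this series, as its label says that the raw data were also deposited elsewhere. The 2 arrays without palmitate shared a slide and the 2 with palmitate shared a second one, so that palmitate and slide cannot be told apart, while each genotype difference was read within a slide.

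Secreted and membrane proteins fold in the ER, and hepatocytes make plasma proteins in bulk. When unfolded protein builds up, the chaperone BiP leaves 3 membrane sensors, IRE1α (encoded by Ern1), ATF6 and PERK. IRE1α splices the Xbp1 message into the form that encodes an active transcription factor, ATF6 is cut in the Golgi to release another, and both raise transcription of chaperone, folding and degradation genes through short promoter elements, whereas PERK slows translation. The arrays read message levels, and neither the splicing of Xbp1 nor the cleavage of ATF6 was read from them here.

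The ER stress response element is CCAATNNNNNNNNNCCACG, in which 9 bases are free and the 2 outer blocks bind the factor NF-Y and ATF6. RefSeq promoters of GRCm38.p6, from 250 bases before to 50 after the gene start, were found for 9 of the 10 genes, Atf6 being the one without an entry. On either strand the element lay in 3 of these 9 promoters, those of Hspa5, Hsp90b1 and Dnajc3, and in 39 of all 32851 promoters, or 0.119%. A second form, the block ATTGG and the block CCACG with 1 free base between them, lay in the promoter of Herpud1 and in 12 promoters in all, or 0.0365%. No gene of the set held both forms. Another motif, TGACGTGG, to which XBP1 and ATF6 can bind, matched none of the 9 (0 of 9) and 0.676% of all promoters. These are matches of letters and not tested sites, and they are printed because the genes that hold them are the main chaperone and degradation genes of the set. The stretches follow 5′ to 3′ on the strand of the gene, with the matched blocks in capitals, and are chr2:34771980-34772069 (plus strand) for Hspa5, chr10:86705525-86705669 (minus strand) for Hsp90b1, chr14:118937802-118937891 (plus strand) for Dnajc3 and chr8:94386339-94386418 (plus strand) for Herpud1.
Hspa5: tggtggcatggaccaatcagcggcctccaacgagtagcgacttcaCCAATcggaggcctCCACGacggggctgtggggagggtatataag
Hsp90b1: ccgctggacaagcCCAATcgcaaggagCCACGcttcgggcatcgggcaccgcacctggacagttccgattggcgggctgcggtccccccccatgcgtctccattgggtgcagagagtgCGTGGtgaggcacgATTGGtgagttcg
Dnajc3: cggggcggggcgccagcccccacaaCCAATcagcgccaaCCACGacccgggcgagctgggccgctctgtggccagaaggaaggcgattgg
Herpud1: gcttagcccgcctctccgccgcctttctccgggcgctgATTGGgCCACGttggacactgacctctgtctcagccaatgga
The element began 65 bases before the start of Hspa5 and 105 before that of Dnajc3. Hsp90b1 held it at 212 bases on its own strand and again nearer to the start on the other strand, where the blocks read reversed. The second form began 52 bases before the start of Herpud1.

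**Figure D1:**
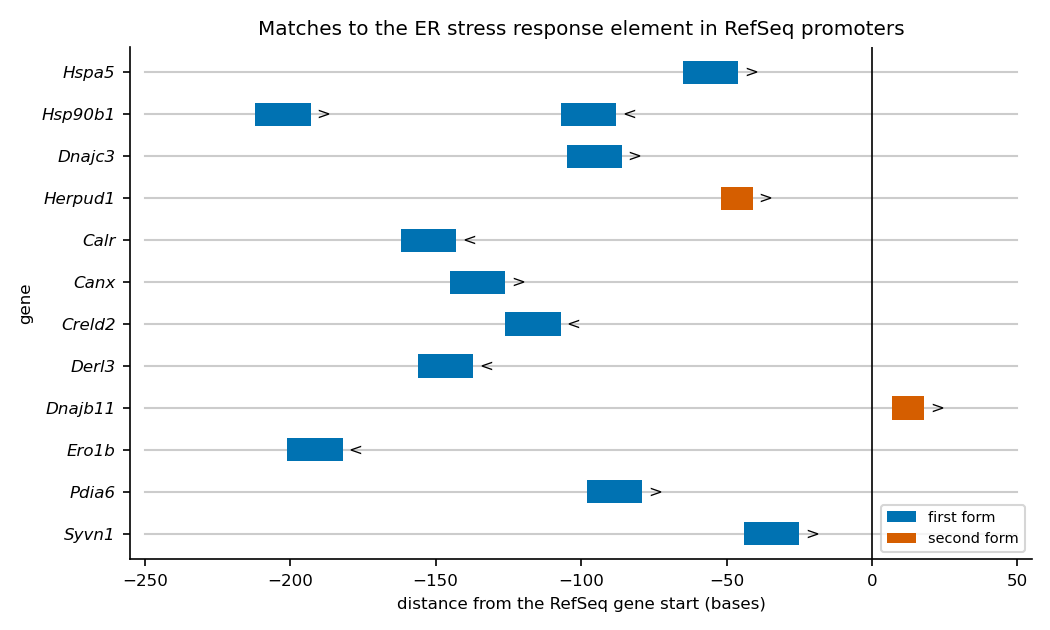
Position of each match, in bases from the RefSeq gene start (x axis, start at 0), for the 4 genes of the set that hold one and for the listed genes of the same pathway that do (y axis). Blue bars are the first form and orange bars the second, and the arrow beside a bar gives its strand relative to the gene; the match of Hspa5 begins 65 bases before the start and that of Dnajb11 lies after it.

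The level of a probe is the log2 of its processed intensity minus the 75th percentile of its array, which lay at intensities of 485, 542, 424 and 468 on the untreated control, untreated Drp1LiKO, control palmitate and Drp1LiKO palmitate arrays. All levels below are given in that order. Between 44.7% and 51.1% of 56603 probes were well above background by the scanner's flag, and 0 spots were saturated. Probes printed 10 times differed between spots by a median SD of 0.04 log2 units, and the scanner's own error of 10.0% of the signal puts 0.19 log2 units on a difference between 2 arrays. Both cover the measurement of a spot and not the spread between animals or cultures. Dnm1l checked the labels on its brightest probe, at levels of 2.42, 1.07, 2.43 and 1.01. Drp1LiKO differed there from control by -1.35 untreated and by -1.42 with palmitate. A further dim Dnm1l probe, well above background on the untreated arrays only, differed by -0.35 and 0.22. All 10 hepatocyte markers were well above background on every array, and their summed linear level, in units of the 75th percentile, stayed between 1635 and 1720. Single hepatocyte markers were less even than this sum. In Drp1LiKO cells 1 of 10 was higher past 2-fold untreated and 2 of 10 with palmitate, and 0 were lower past 2-fold. Their median genotype difference was 0.14 untreated and 0.01 with palmitate. Markers of other liver cells and of dividing cells moved with genotype. The summed level of the macrophage markers, 12 of 15 listed symbols being measured, was 9.70, 37.2, 12.2 and 34.7. Timd4 and Cd163 were not well above background anywhere. The same held for the symbol Emr1, an older name of Adgre1, which was measured under its current name. The summed level of 10 endothelial markers was 1.90, 5.46, 1.84 and 3.83. That of 10 stellate markers was 45.2, 62.5, 46.5 and 59.2, with Des and Hand2 not well above background anywhere. The sums follow the brightest markers; by the median of the measured markers the genotype difference was 2.42 untreated and 1.99 with palmitate for macrophages, 1.80 and 1.051 for endothelium, and 3.22 and 2.44 for stellate cells. The summed level of 8 cell division markers was 26.4, 6.10, 27.5 and 7.52, with 8 of 8 lower past 2-fold untreated and 7 of 8 with palmitate. That of 5 cholangiocyte markers was 60.5, 41.8, 57.1 and 43.6, with Epcam not well above background anywhere, and their median difference was 0.04 untreated and -0.40 with palmitate. In whole cultures fewer cells of a type and less RNA per cell cannot be told apart, and the part of these cells in the differences below was not tested.

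Of 21 probes of the 10 genes, 18 were well above background on all 4 arrays and 3 on none, 1 of Atf6 and 2 of Ern1. Where a gene had several usable probes, the brightest stood for it. Positions are those of the probe annotation, on mm9, and exon or UTR annotation of that build was not used here.

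The first comparison asked what loss of Drp1 did to these genes without fatty acid. Hsp90b1, Dnajb9, Sdf2l1 and Pdia4 were higher in Drp1LiKO hepatocytes by 0.44 to 0.68 log2 units, Dnajc3 differed by -0.58, and the 5 others lay between -0.16 and 0.26. No gene of the set reached a 2-fold change (0 of 10), against 14.4% of the 19876 genes measured on these 2 arrays. At 1.5-fold, 3 of the 10 were higher (Dnajb9, Sdf2l1 and Pdia4) against 15.2% of all genes, and 0 were lower against 11.5%. Centring on the array median in place of the 75th percentile took those 3 below 1.5-fold and Dnajc3 past it, as quantile normalization did for Dnajc3, normexp background correction took Sdf2l1 below it, and median centring cut the share of higher among all genes past 1.5-fold from 57.0% to 40.2%. The median difference of the 10 genes was 0.22, that of all genes -0.02. With median centring these were 0.04 and -0.20. A new centre shifts all genes of an array alike, so the gap of 0.24 log2 units could not change with it, while the sign of a small difference could. With the mean of all probes of a gene the 2 medians were 0.435 and 0.004.

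With palmitate on both sides, Pdia4 and Sdf2l1 had the largest differences, 0.94 and 0.67, Hsp90b1 was higher by 0.35 and Dnajc3 differed by -0.39. The 2-fold count was again 0 of 10, against 11.5% of 18890 genes. At 1.5-fold, 2 of 10 were higher (Sdf2l1 and Pdia4) against 12.8% of all genes, and 0 were lower against 8.36%. Only Pdia4 of these kept to 1.5-fold under median centring, which moved the share of higher among all genes past 1.5-fold from 60.4% to 45.9%. The median difference was 0.17 in the set and -0.03 in all genes. Counted by direction alone, 6 of 10 genes were higher untreated and 7 of 10 with palmitate, against 47.8% and 46.3% of all genes. These 2 counts hold small values that changed sign with the scaling: Hspa5 and Herpud1 turned to higher untreated under quantile normalization, and Atf6 turned to lower with palmitate under median centring.

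**Figure D2:**
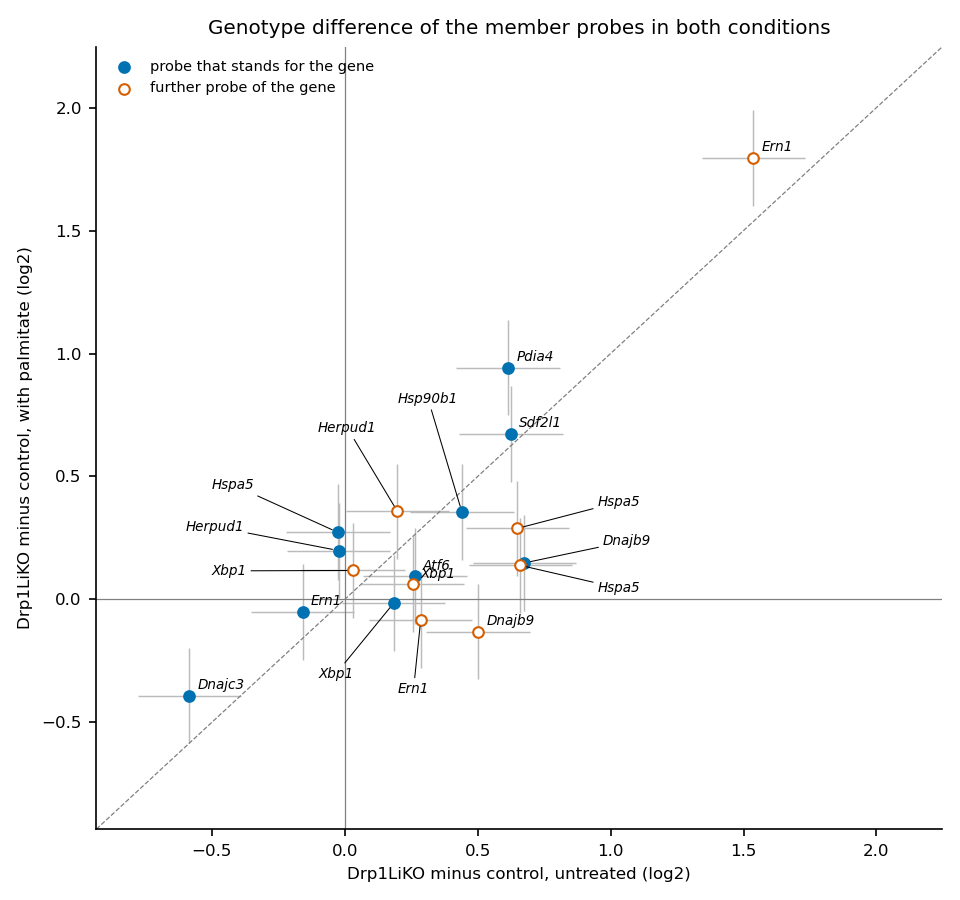
Difference between Drp1LiKO and control in log2 units for the 18 usable probes, untreated on the x axis and with palmitate on the y axis, with grey bars for the scanner's error of 0.19 on each difference and a dashed line where both are equal. Filled points are the probes that stand for a gene and open points its further probes; Pdia4 and Sdf2l1 lie high on both axes, Dnajc3 lies low on both, and a dim Ern1 probe stands apart at 1.54 and 1.80.

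Among the chaperones, Hsp90b1 encodes GRP94, the ER member of the HSP90 family. Its probe (chr10:86153693-86153752) gave levels of 5.65, 6.09, 6.07 and 6.42. The level was thus lowest in untreated control cells, highest in Drp1LiKO cells with palmitate, and nearly alike in the 2 groups that had only the deletion or only palmitate. The genotype difference was 0.44 untreated and 0.35 with palmitate.

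Sdf2l1 encodes a partner of BiP and of ER-resident DnaJ proteins that keeps unfolded clients soluble. Levels were -0.26, 0.37, 0.30 and 0.98 (chr16:17130426-17130485), in the same order of groups as Hsp90b1. The genotype difference of 0.63 untreated and 0.67 with palmitate lay above 85.7% and 88.9% of all genes. No other gene of the set was as even across both conditions and both genotypes.

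Dnajb9 encodes ERdj4, a co-chaperone that brings clients to BiP and represses IRE1α. Its brighter probe (chr12:45307071-45307129) gave 0.74, 1.42, 1.54 and 1.68, so that the untreated control array stood below the other three. The genotype difference was 0.68 untreated and 0.15 with palmitate, the latter within the scanner's error. The second probe (chr12:45308272-45308331) gave -1.06, -0.56, -0.37 and -0.50, again with the untreated control array lowest, and genotype differences of 0.50 and -0.13.

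Dnajc3 encodes P58IPK, a co-chaperone of BiP that also inhibits PERK. It was the one chaperone gene of the set that lay lower in Drp1LiKO cells. Its levels were -0.59, -1.17, -0.76 and -1.15 (chr14:119380429-119380488), both Drp1LiKO arrays being below both control arrays. The differences of -0.58 and -0.39 lay below all but 11.5% and 13.9% of genes.

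Hspa5 encodes BiP, the HSP70 chaperone of the ER lumen and the classical readout of unfolded protein. Its 3 probes did not give the same picture. The brightest (chr2:34631913-34631972) gave 6.61, 6.58, 6.73 and 7.002, a genotype difference of -0.03 untreated and 0.27 with palmitate. Probe A_55_P2617139, which lies before it on the gene's strand (chr2:34631136-34631195) gave 4.74, 5.40, 4.91 and 5.05, differences of 0.66 and 0.14. Probe A_55_P2617149 (chr2:34630699-34631075, 60 bases that span 377 of the genome) gave 4.11, 4.76, 4.23 and 4.52, differences of 0.65 and 0.29. The latter pair put the untreated Drp1LiKO array highest and the brightest probe put it lowest, so the untreated genotype difference of Hspa5 rests on the probe, and the mean over the 3 was 0.43. The sequences of the disagreeing pair are shown because each reads without a stop codon in 1 frame, as a stretch of coding sequence would, in the order in which they were just described.
Hspa5 probe A_55_P2617139: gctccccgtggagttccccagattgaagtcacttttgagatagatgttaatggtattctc
Hspa5 probe A_55_P2617149: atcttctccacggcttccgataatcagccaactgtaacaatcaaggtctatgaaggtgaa

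**Figure D3:**
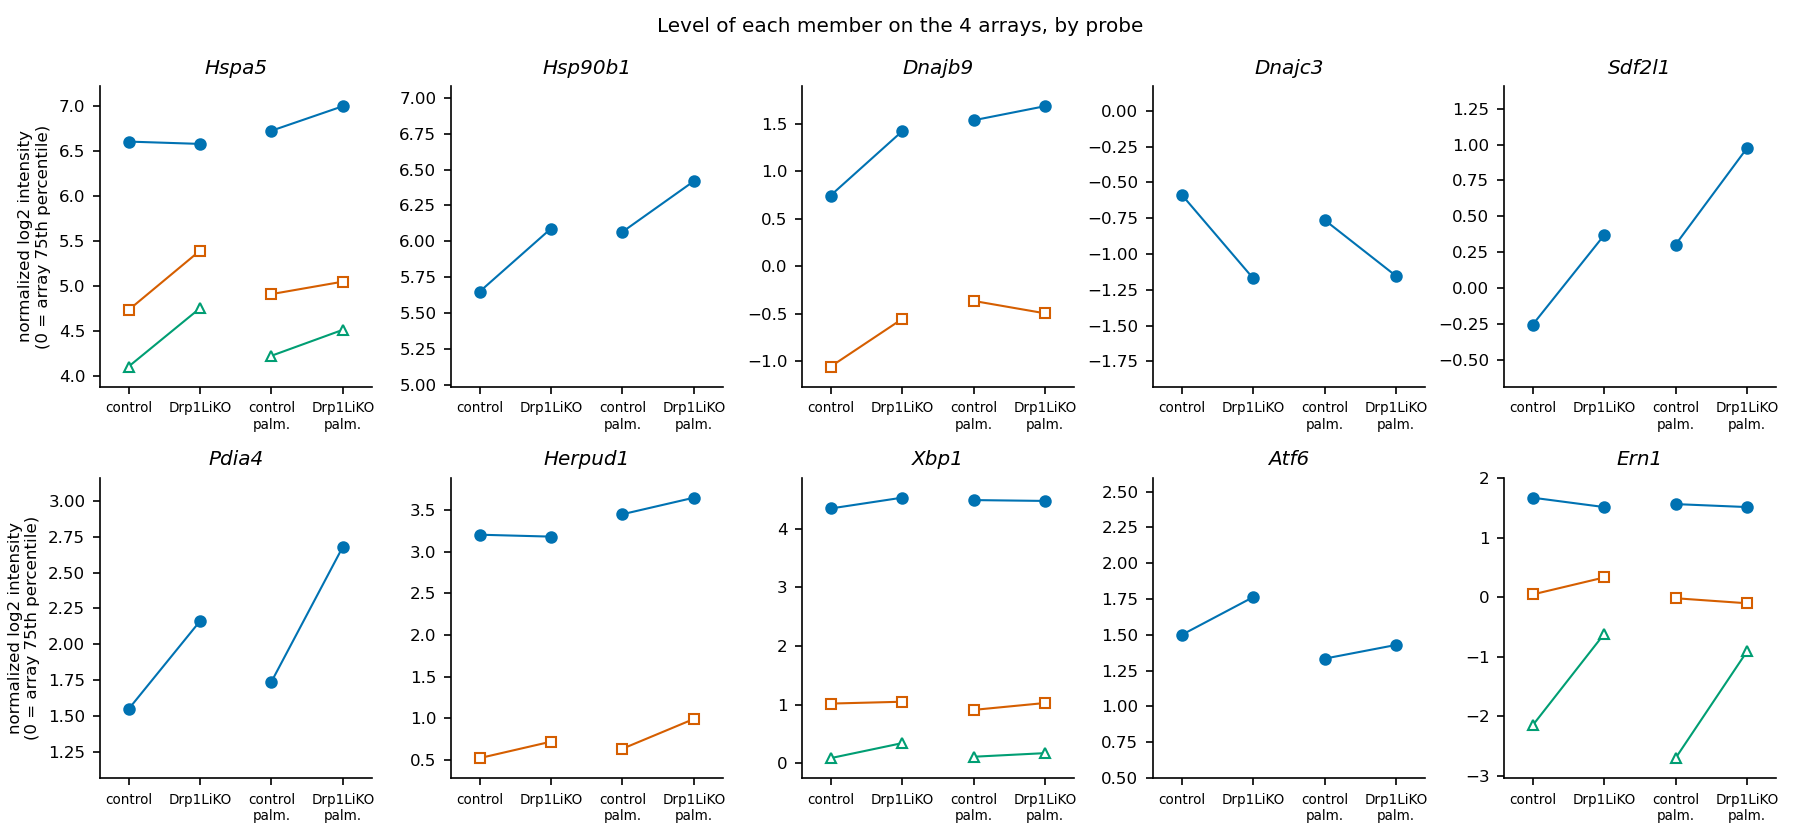
Level of each gene on the 4 arrays (y axis, log2 units, 0 is the 75th percentile of the array, each panel with its own range), with a line between the genotypes of 1 slide. Filled circles are the probe that stands for the gene, and open squares and triangles its further probes well above background; Hsp90b1, Sdf2l1 and Pdia4 slope up in both pairs, Dnajc3 slopes down in both, and the probes of Hspa5 differ.

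Pdia4 encodes ERp72, a protein disulfide isomerase. Levels of 1.55, 2.16, 1.74 and 2.68 (chr6:47746516-47746575) put both Drp1LiKO arrays above both control arrays. The difference of 0.61 untreated, or 1.53-fold, became 0.94 with palmitate, or 1.92-fold, which lay above 92.3% of all genes and was the nearest to 2-fold of any gene in the set.

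Herpud1 encodes a membrane protein of the complex that sends misfolded proteins to the proteasome. Its brighter probe (chr8:96919117-96919176) gave 3.21, 3.18, 3.45 and 3.65, with genotype differences of -0.02 and 0.20. The other (chr8:96918575-96918634) gave 0.52, 0.72, 0.63 and 0.99, with differences of 0.20 and 0.36. On both probes Drp1LiKO cells with palmitate were highest, by margins close to the scanner's error.

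The 3 signalling genes follow. Xbp1, the substrate of IRE1α, gave 4.35, 4.53, 4.49 and 4.48 on its brightest probe (chr11:5425816-5425875), with genotype differences of 0.18 untreated and -0.01 with palmitate. On its 2 further probes (chr11:5424869-5424928 and chr11:5424970-5425029) the differences lay between 0.03 and 0.26. None but that 0.26 exceeded the scanner's error of 0.19.

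Atf6, the sensor that becomes a transcription factor, gave 1.499, 1.76, 1.33 and 1.43 (chr1:172637679-172637738). Drp1LiKO was higher by 0.26 untreated and by 0.10 with palmitate, the second value turning to -0.05 under median centring. The 2 palmitate arrays were the lowest.

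Ern1, the gene of IRE1α, had 3 usable probes. The brightest (chr11:106255965-106256024) gave 1.68, 1.52, 1.57 and 1.52, with genotype differences of -0.16 and -0.05. The next (chr11:106258948-106259007) gave 0.05, 0.33, -0.02 and -0.10, with differences of 0.29 and -0.08. A dim probe (chr11:106275124-106275183), on the same strand of the genome as the others, gave -2.15, -0.62, -2.71 and -0.91. Its differences of 1.54 and 1.80, or 2.90-fold and 3.47-fold, were the only ones past 2-fold among the 18 usable probes, and they pulled the mean over the gene's probes to 0.56 untreated and 0.55 with palmitate. The raw intensities behind them were 109, 354, 65.0 and 249, and which messages this probe reads was not tested. Over all usable probes, 14 of 18 were higher in Drp1LiKO untreated and 13 of 18 with palmitate.

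An additive limma model of genotype and palmitate over the 4 arrays was the only fit across samples that the design allows. It had 1 residual degree of freedom, which also holds the interaction. The SE of an effect thus rests on how alike the genotype differences were in both conditions and on the variance of all genes. The model holds no measure of the spread between animals or cultures. It called 0 of 20616 genes at a Benjamini-Hochberg adjusted p under 0.05, a background of 0%, and 0 of the 10 genes, while 5363 genes and 4 of the 10 had an unadjusted p under 0.05. Sdf2l1 had a genotype effect of 0.65 ± 0.07 (SE) with a limma adjusted p of 0.126. Pdia4 had 0.78 ± 0.13 with an adjusted p of 0.151 in the same model. Hsp90b1 came to 0.40 ± 0.08 with a limma adjusted p of 0.162, and Dnajc3 to -0.49 ± 0.10 with 0.165. For the other 6 genes the adjusted p of limma lay between 0.318 and 0.601. The calls depended on the variance model and the filter: with the variance fitted as a trend of intensity, limma called 5353 genes, among them these 4, when a probe had to pass the background flag on all 4 arrays it called 2592 of 16619, among them Pdia4 and Sdf2l1, and with normexp background correction 1517, among them Sdf2l1.

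The second question of the design was how the cells responded to palmitate. In control cells Dnajb9 was higher by 0.79 log2 units with palmitate, or 1.73-fold, followed by Sdf2l1 at 0.56 and Hsp90b1 at 0.42. In Drp1LiKO cells Sdf2l1 was higher by 0.61, Pdia4 by 0.52, Herpud1 by 0.47 and Hsp90b1 by 0.33. The 2-fold count was 0 of 10 in control cells, against 5.7% of 18772 genes, and 0 of 10 in Drp1LiKO cells, against 7.04% of 19748. At 1.5-fold, Dnajb9 alone was higher in control cells (1 of 10, against 5.78%) and 0 were lower (against 4.81%), and Sdf2l1 alone was higher in Drp1LiKO cells (1 of 10, against 7.96%) and 0 were lower (against 6.18%). Normexp background correction took Sdf2l1 below 1.5-fold in Drp1LiKO cells. The median of the set was 0.17 in control and 0.30 in Drp1LiKO cells, while all genes had 0.01 and 0.00; with the mean of all probes of a gene, the value in Drp1LiKO cells was 0.09. As palmitate was confounded with slide, these values are differences between slides as much as between treatments.

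Gene by gene, the 2 responses were alike for Sdf2l1 and Hsp90b1 and unlike for Dnajb9 and Hspa5. The difference between the responses was 0.05 for Sdf2l1 and -0.09 for Hsp90b1, within the scanner's error. For Dnajb9 it was -0.53 on the brighter probe and -0.63 on the other, Drp1LiKO cells responding less on both. The brightest probe of Hspa5 responded by 0.12 in control and 0.42 in Drp1LiKO cells. The 2 probes whose sequences are shown gave 0.18 and -0.34, and 0.12 and -0.24, so that in Drp1LiKO cells the probes of this gene differed in direction, and the mean over the 3 was -0.05. The responses of Herpud1 were 0.25 and 0.47 on the brighter probe and 0.11 and 0.27 on the other. Those of Pdia4 were 0.19 and 0.52.

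The sensors lay lower or level with palmitate. Atf6 differed by -0.17 in control and -0.33 in Drp1LiKO cells, and the brightest probe of Ern1 by -0.11 and 0.00, the other Ern1 probes lying between -0.06 and -0.55. Xbp1 gave 0.14 and -0.06 on its brightest probe and between -0.17 and 0.02 on the others. Dnajc3 gave -0.18 and 0.02. No difference between responses was tested, each group having 1 array.

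**Figure D4:**
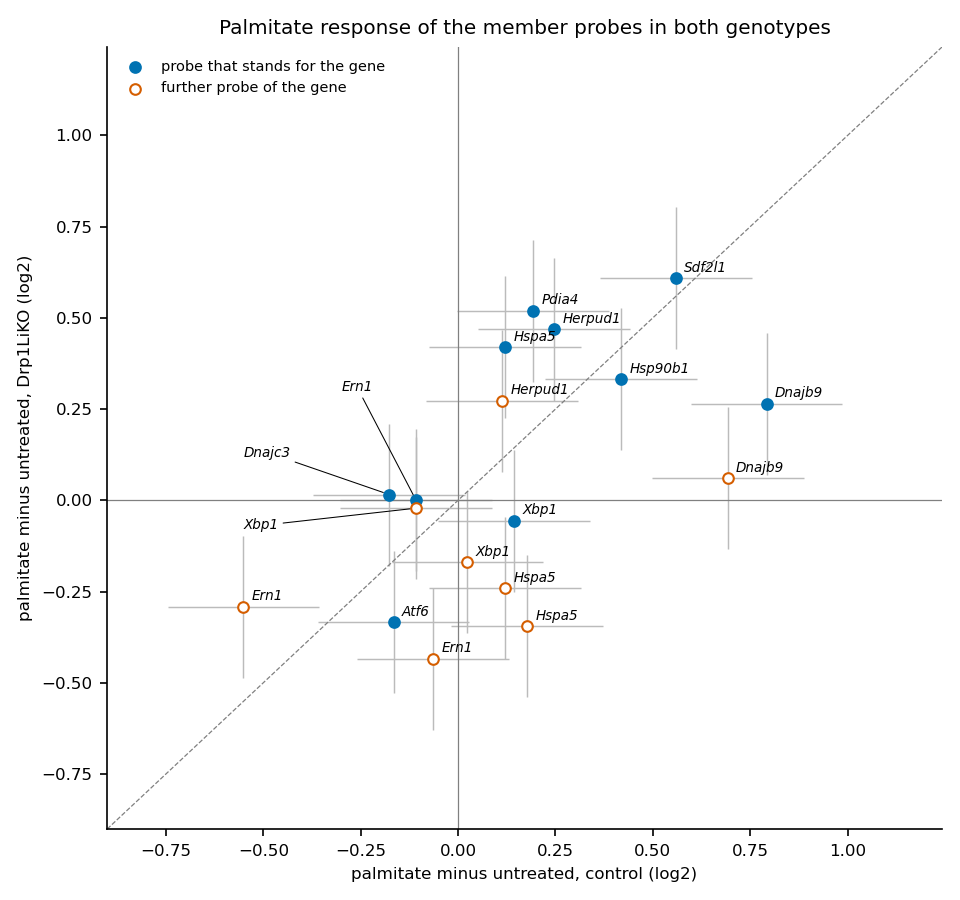
Palmitate response in log2 units of the 18 usable probes, in control cells on the x axis and in Drp1LiKO cells on the y axis, with grey bars for the scanner's error of 0.19 and a dashed line where both are equal. Filled points stand for a gene and open points are further probes; both Dnajb9 probes lie to the right of the line, and the 3 Hspa5 probes lie on both sides of the horizontal zero line.

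Other genes of the pathway were read from 6 lists by role. Between genotypes, the distance of a list median from that of all genes ran from -0.17 to 0.16 untreated and from -0.22 to 0.25 with palmitate. Of the disulfide enzymes 31.6% and 22.2% were higher, and of the sensors 29.4% and 31.25%, against 47.8% and 46.3% of all genes. In the PERK-ATF4 arm 64.3% were higher in each condition. Of 22 measured ER folding chaperones, 2 passed 2-fold in each genotype comparison, both higher, against 14.4% of all genes untreated and 11.5% with palmitate. The list median was 0.11 untreated and 0.07 with palmitate, or 0.13 and 0.10 above the median of all genes. Median centring turned it to -0.08 and -0.07 and could not change these distances, which were 0.12 and 0.10 with quantile normalization. The 2 past 2-fold were Fkbp10 (levels -2.85, -0.57, -3.19 and -0.75) and Serpinh1 (-2.13, 0.16, -2.02 and 0.31), which assist collagen. Their differences were 2.28 and 2.44 for Fkbp10 and 2.29 and 2.33 for Serpinh1. Stellate markers were higher in 8 of 8 untreated and 7 of 7 with palmitate. Macrophage markers were higher in 12 of 12 and 11 of 11, and endothelial ones in 10 of 10 and 8 of 9. The part of any of these cells in the 2 genes was not tested. Hyou1, the nucleotide exchange factor of BiP, was next, at -2.91, -2.13, -2.76 and -1.77 with differences of 0.78 and 0.99. Over its 3 probes the mean genotype difference ran from 0.52 to 0.89. Like those of Fkbp10 in control cells, the levels of Hyou1 lay below those of the dim Ern1 probe in the same groups. The pattern of Hyou1, like that of Pdia4, had the highest level in Drp1LiKO cells with palmitate.

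The medians of the disulfide enzymes and the translocon lay below 0. Median centring lowered them together with all genes and could not change their distance from the median of all genes. That distance was -0.06 untreated and -0.18 with palmitate for the disulfide enzymes, and -0.17 and -0.22 for the translocon. With quantile normalization, which can change it, the distance was -0.05 and -0.16 for the disulfide enzymes and -0.07 and -0.16 for the translocon. The median of 19 disulfide enzymes was -0.08 untreated, with 1 gene past 2-fold in each direction against 14.4% of all genes, and that of 18 with palmitate was -0.21 with 0 past 2-fold against 11.5%. Tmx1, a membrane-bound thioredoxin, gave 1.81, -0.17, 1.76 and 1.32, the untreated Drp1LiKO array standing far below the other 3, and its 2 probes did not agree in the mean genotype difference, at -1.21 and 0.18. Pdia5 gave 2.60, 1.61, 2.32 and 1.63, with genotype differences of -0.99 and -0.69. Qsox1 gave 5.65, 4.96, 5.56 and 5.22 on its brightest probe, and its 2 probes also disagreed in the mean genotype difference, at -0.52 and 0.29. Among 21 genes of the translocon and of signal peptide processing 16 were lower in each condition and 5 were higher, where 47.8% of all genes were higher untreated and 46.3% with palmitate. The medians were -0.19 and -0.25, and 1 of the 21 passed 2-fold, untreated, against 14.4% of all genes. That gene was Spcs3, a signal peptidase subunit, at 2.32, 1.13, 2.38 and 1.78. Ssr1, a subunit of a complex at the translocon, had differences of -0.58 and -0.43, and Tram1, which assists the translocon, had -0.58 and -0.41.

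Among 26 genes of ER-associated degradation the medians were -0.04 in both conditions, and 1 passed 2-fold, untreated, against 14.4% of all genes. It was Derl3, a channel component under the control of the unfolded protein response, at -1.64, -0.09, -0.09 and 0.60, with genotype differences of 1.55 and 0.69 and palmitate responses of 1.54 and 0.68. The order of its groups was that of Hsp90b1 and Sdf2l1, at larger size. Ubxn4 was higher in Drp1LiKO by 0.50 and 0.43, and Rnf5, a ubiquitin ligase, had differences of -0.54 and -0.30.

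Among the sensors and the proteases that process them, 17 genes measured untreated had a median of -0.19 and 16 with palmitate one of -0.16, with 2 past 2-fold in each condition, against 14.4% and 11.5% of all genes. Both were higher: Wfs1, an ER membrane protein that restrains ATF6, at 2.32, 3.70, 1.97 and 3.14, and Creb3l3, the liver-enriched relative of ATF6, at 2.27, 3.44, 2.18 and 3.39. Mbtps1, the site-1 protease that cuts ATF6, had differences of -0.61 and -0.65. The 14 genes of the PERK-ATF4 arm had medians of 0.14 and 0.22, or 0.16 and 0.25 above the median of all genes. Median centring turned the first to -0.05 and could not change these distances, which were 0.19 and 0.28 with quantile normalization. Untreated, 1 of the 14 passed 2-fold, against 14.4% of all genes. That was Ddit4, at 3.39, 4.50, 3.46 and 3.63, the untreated Drp1LiKO array standing above the rest. Ppp1r15a, which encodes the phosphatase subunit GADD34, gave 3.79, 4.67, 3.96 and 4.59, higher by 0.88 and 0.63, and Vldlr was higher by 0.63 and 0.61.

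Under palmitate the medians of the 6 lists lay between -0.13 and 0.05 in control cells and between -0.15 and 0.09 in Drp1LiKO cells, the PERK-ATF4 arm being lowest in both. The medians of the 10 genes were 0.17 and 0.30, the second of which was 0.09 with the mean of all probes, and the difference from the lists was not tested. The 2 genotype comparisons share no array with each other, nor do the 2 palmitate responses, but each genotype difference shares an array with each response, so values of the 2 kinds are not independent.

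**Figure D5:**
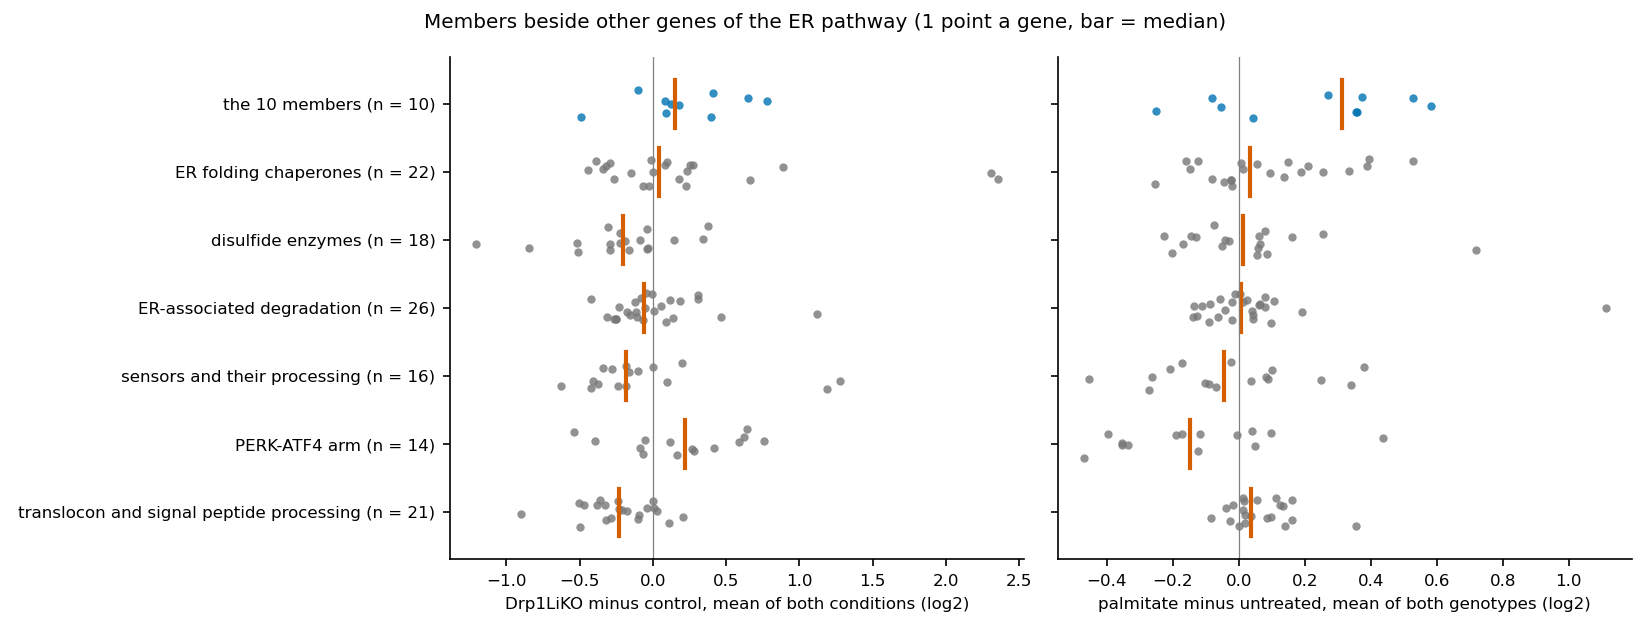
Mean genotype difference over both conditions (left, log2 units) and mean palmitate response over both genotypes (right, log2 units) of each gene, with the 10 genes in blue, the 6 lists of other ER genes in grey, the number of genes in brackets and the list median as an orange bar. Genes are spread vertically only for legibility; Fkbp10 and Serpinh1 lie farthest to the right on the left side, and in the palmitate panel the point of the degradation list past 1 is Derl3.

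The stress element was also used to sort genes without regard to the lists. Of the symbols with a promoter, 37 of 27025 held its first form, or 0.137%. Genes were matched by symbol, which left out Ero1b, named Ero1lb on the array, and 20 to 22 of the 37 were measured in a comparison. Their median difference was 0.15 untreated and 0.16 with palmitate between genotypes, and 0.10 in control and 0.13 in Drp1LiKO cells for palmitate. All genes had medians of -0.02, -0.03, 0.01 and 0.00. Of the genes with the element, 13 of 20, 14 of 22, 15 of 20 and 17 of 21 were higher in the same order. Of all genes, 47.8%, 46.3%, 51.6% and 50.7% were higher. Counts by sign can move with the centre, and no other scaling was run for these genes. The palmitate counts are differences between slides as much as between treatments. Besides the 3 genes of the set, Calr, Canx, Creld2, Derl3, Ero1b (Ero1lb on the array), Pdia6 and Syvn1 of the lists held it, 7 of the 97 listed genes with a promoter, and Dnajb11 held the second form. The search took exact letters in this window only, so that sites with a mismatch or outside it would be missed. Within it the promoters of Sdf2l1, Dnajb9 and Pdia4, the 3 genes past 1.5-fold between genotypes untreated, held none of the 3 motifs. Of the genes of the set with the first form, Hsp90b1 lay higher in Drp1LiKO, Dnajc3 lay lower, and Hspa5 differed by probe. The part of the element in these differences was not tested.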

How the data were processed

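RNA was labelled with Cy3 and hybridised to 1-colour Agilent mouse arrays with 62976 spots, 1 array per group; labels and methods name different RNA kits. The deposited table of each array gives linear intensity per spot, which the authors obtained with Feature Extraction 10.7.1.1 per the file headers (9.5.1.1 per the submitters' processing notes), background-subtracted and detrended within each array. A deposited value table of intensity, whose columns had equal sorted values to within 104.712 and the rank order of the scanner signals, served as an alternative.

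Control spots and outlier spots (47 to 71 per array) were left out, repeat spots averaged, and log2 intensity taken minus the array's 75th percentile. A gene was read from its brightest probe among those well above background on at least 1 array. It was measured in a comparison if that probe passed the scanner's background flag on 1 or both arrays, and counted as changed from 2-fold. Such pairs have no test. The 4-array fit used limma 3.58.1 in R 4.3.3 (lmFit, eBayes, two-sided, Benjamini-Hochberg over all genes). Its power to find effects of the size seen in the set was not tested. Python 3.11.15, numpy 2.4.6, pandas 2.3.3 and matplotlib 3.10.9 were used. Motifs were searched in RefSeq promoters of GRCm38.p6.

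Groups came from the sample labels. Of the other genes of a list, the 3 with the largest mean absolute genotype difference over both conditions, well above background on all 4 arrays, were named. The genes, the lists and the motifs were chosen with earlier results of these data known. Alternatives changed the background correction, normalization, filter, probe rule, outlier spots, fold and variance model. One further list of markers is not reported here.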

Additional observations from a re-analysis of the deposited data

Results flagged for a closer look

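Probes of 2 genes moved in opposite directions in the 2 genotypes or the 2 conditions, by more than 2 times the SD of a difference between spots on both sides; the differences were not tested, as each group had 1 array. Hspa5 probe A_55_P2617139 was higher with palmitate by 0.18 log2 units in control cells and differed by -0.34 in Drp1LiKO cells. Hspa5 probe A_55_P2617149 gave 0.12 and -0.24 in the same order, whereas the brightest probe of the gene gave 0.12 and 0.42. The second Dnajb9 probe (A_66_P133450) was higher in Drp1LiKO cells by 0.50 untreated and differed by -0.13 with palmitate, where the brighter probe gave 0.68 and 0.15.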

How the results depend on the processing

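The 2-fold count of the set was 0 in all 4 comparisons under every alternative tried except the 1.5-fold threshold, which gave 3, 2, 1 and 1 genes. The median of the set moved under 2 alternatives by more than the noise between spots. Median centring gave 0.041 untreated, 0.029 with palmitate and 0.114 for the response of control cells, and the median of all genes fell with it to -0.20, -0.17 and -0.05. The mean of all probes of a gene gave 0.435 untreated, 0.256 with palmitate and 0.0892 for the response of Drp1LiKO cells. Limma called 1517 genes and 1 of the set with normexp, 2592 and 2 when all 4 arrays had to pass the background flag, and 5353 and 4 with an intensity trend, against 0 with the value table, quantile normalization, median centring or the mean of probes. Of 320 single values under 8 alternatives, 17 changed sign, among them Hspa5 in the response of Drp1LiKO cells (0.42 to -0.05 with the mean of its probes) and Ern1 between genotypes. Requiring both arrays above background, dropping the filter and keeping outlier spots left every value of the set as it was (0 of 40 each). The 17 are thus spread over fewer alternatives than the 8. Over all genes the untreated 2-fold count of 2868 became 1051 with normexp, 1378 with both arrays required above background and 4680 with no filter. In control cells, requiring both arrays moved the share of higher among genes past 2-fold from 49.7% to 76.9%. The causes were not tested. Pairing by replicate number was not possible because each group has 1 array and so the groups share 1 replicate number. The slide, which is also palmitate, was a term of the limma model, so its genotype effect was taken within slides. With 1 array per group, no array could be left out of a comparison of 2. Dim probes limit what can be read, and 3 of the 21 probes of the set gave no usable signal.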
